A study of Caenorhabditis elegans with 8 samples.

Results

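Of the 5396 DAF-16 peaks listed for wild type (WT), 679 overlapped no peak of the daf-2(-) list by even 1 bp, and they are called WT-only peaks here. They made up 12.6% of the WT list (Wilson 95% interval 11.7 to 13.5), or 24.2% (23.1 to 25.4) where a WT peak counts as shared only with a daf-2(-) summit within 100 bp of its own. The deposited WT and daf-2(-) lists held 12255 peaks together. The members were chosen on measured values, since a peak interval is itself a result of ChIP signal and calling, so their number, strength, length and lack of a daf-2(-) partner are descriptions and carry no test. The remaining 4717 WT peaks, called other WT peaks, are the ones that overlapped a daf-2(-) peak.

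The study compared where endogenous DAF-16 sits on chromatin in normal worms and in worms with low insulin/IGF-1 signalling. Mixed-stage Caenorhabditis elegans cultures at 20 °C were used, and chromatin was precipitated with a polyclonal antibody that sees every isoform of untagged DAF-16. The 4 strains were WT (N2 Bristol), daf-2(-) (allele e1370), daf-16(-), which carries the mgDf50 allele, and daf-16(mgDf50);daf-2(e1370), the double mutant, each with 1 ChIP and 1 input library, 8 libraries in all, from pooled worms. No allele or agent is shared by all strains, and the DAF-16-null strains enter only through the authors' removal of peaks that also appeared in them. With 1 library for each strain and antibody no spread between replicates exists, no p-value is given, and every interval below covers counting error only, over peaks that are not replicates of a strain.

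DAF-16 is the only FOXO-type forkhead transcription factor of the worm. Signalling through the insulin/IGF-1 receptor DAF-2 keeps it largely in the cytoplasm by phosphorylation, and when that signal drops DAF-16 enters nuclei and turns on genes for stress resistance, metabolism, immunity and dauer arrest. WT-only peaks are sites listed under normal signalling and not listed in the strain in which the factor is known to be more nuclear. The lists do not give daf-2(-) tags inside WT-only intervals, so an unlisted site may still hold signal below the calling limit.

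WT-only peaks were weak members of the WT list. Their fold enrichment, the height of the summit over local background, had a median of 7.16 (quartiles 5.96 and 8.51) and ran from 3.78 to 16.3, against a median of 11.3 in other WT peaks. Summit height had a median of 61.0 tags against 97.0 tags, and the count of tags inside a peak had a median of 131 against 195. Background did not follow this difference, with medians of 8.20 and 8.24 tags. WT-only peaks were also a little shorter, with a median length of 897 bp (95% interval 885 to 908) against 970 bp, but the order turned under the summit rule, with 971 bp against 957 bp. The false discovery rate given by the caller had a median of 0.280% in WT-only peaks and was at most 0.510%. Together they held 98522 of the 1315194 tags inside WT peaks, or 7.49%.

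The share found in WT only dropped steeply with strength. It was 50.3% of the 356 WT peaks with a fold enrichment under 6 (Wilson 95% interval 45.1 to 55.4), 27.4% between 6 and 8, 15.1% between 8 and 10, 6.51% between 10 and 12, and 0.555% of the 2163 peaks at 12 or more. Below a fold enrichment of 10, where 616 of the 679 members lay, the share was 25.2%. Set beside the other list, 323 members had a higher fold enrichment than the daf-2(-) median of 7.24. That list had lower values as a whole, since the median over all WT peaks was 10.5. Tags per peak had a median of 106 in daf-2(-) and 184 in all WT peaks. Values as low as 2.64, and peaks of 39 tags, were listed for daf-2(-). The false discovery rate ran the other way. It was at most 0.150% in the daf-2(-) list, below the median of 0.280% in WT-only peaks. Most members thus had a rate higher than that of any listed daf-2(-) peak. The lists were called separately, so the values of one are set beside the other with that limit.

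**Figure D1:**
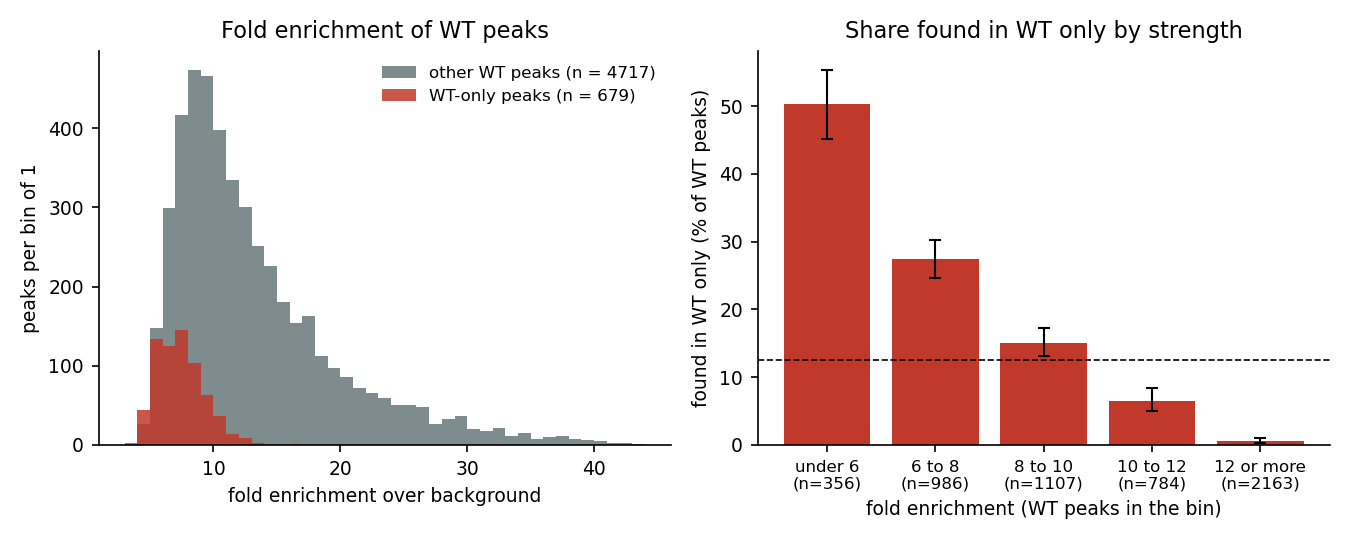
Left, number of WT peaks in bins of 1 unit of fold enrichment over background, for WT-only peaks (red, n = 679, drawn in front) and other WT peaks (grey, n = 4717). Right, percent of WT peaks found in WT only in 5 bins of fold enrichment, with Wilson 95% intervals as bars and the share over all WT peaks, 12.6%, as a dashed line. The share went from 50.3% in the weakest bin to 0.555% in the strongest.

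The strongest WT-only peak lay at cpt-4, a carnitine palmitoyltransferase family gene, a family that moves long-chain fatty acids into mitochondria. It spanned chrV:5027238-5028457 in the coordinates of the deposited lists (WS230), with its centre 122 bp upstream of the transcription start site (TSS), and contained 272 tags (exact Poisson 95% interval 241 to 306) with a summit of 128 tags and a fold enrichment of 16.3. The nearest daf-2(-) peak was 3292 bp away and was assigned to K11D12.13 with a fold enrichment of 21.5. No peak of the daf-2(-) list was assigned to cpt-4.

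Below cpt-4 the values fell away without a break. The next members were the tRNA genes F43E12.t1 (13.6) and K08H2.t1 (13.3), the protein-coding genes F11C1.4 (13.0) and R12C12.1 (12.7), the Argonaute gene wago-4 (12.8), which acts in inherited small-RNA silencing in the germ line, the snoRNA gene smy-3 (12.5) and the peroxisomal ABC transporter family gene pmp-5 (12.5), each value a fold enrichment. The wago-4 peak, at chrII:12918875-12919721, had its centre 279 bp from the TSS on the upstream side, contained 118 tags and stood 19232 bp from any daf-2(-) peak. The pmp-5 peak, at chrV:6666252-6666942, held 139 tags but lay 97 bp from a daf-2(-) peak, and pmp-5 itself had 1 daf-2(-) peak. A high value therefore occurred both far from and next to daf-2(-) sites.

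The other members among the 15 strongest were the protein-coding genes ZC449.4, Y105C5A.13 and F21F8.4, the non-coding RNA genes Y14H12A.4 and C15H9.12, the snRNA gene T11F9.15 and the tRNA gene B0228.t1, with fold enrichments from 11.8 to 12.5. Within 0.5 kb upstream of named protein-coding genes, the strongest after cpt-4 and wago-4 were acbp-3 (11.6), an acyl-CoA binding protein gene, and gbh-1 (11.6), a gamma-butyrobetaine hydroxylase gene of carnitine synthesis. They were followed by usp-46 (11.4), a deubiquitinase gene, cpg-1 (11.2), which codes for a chondroitin proteoglycan of the eggshell, lys-2 (11.2), a lysozyme gene, and fbxa-190 (10.9), an F-box gene. The short-chain dehydrogenase gene dhs-21 (10.7) and the fucosyltransferase gene fut-2 (10.6) closed this list. The peaks at acbp-3 (chrX:10902634-10903836, 202 tags) and gbh-1 (chrII:10693393-10694263, 116 tags) were centred 43 and 17 bp upstream of their TSS. None of these 10 genes had a daf-2(-) peak assigned to it, a lack shared by 76.8% of all genes with a WT-only peak.

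A larger share of WT-only peaks than of other WT peaks was centred inside gene models, and a smaller share upstream of genes, with intervals that did not overlap. The peak centre fell upstream of the assigned TSS for 366 members, or 53.9% (50.1 to 57.6), against 66.9% (65.5 to 68.2) of other WT peaks. It fell within the gene model for 219 members, or 32.3% (28.8 to 35.9), against 21.2% (20.1 to 22.4), and beyond its far end for 94, or 13.8%, against 11.9%. Centres more than 1 kb past the TSS were found for 17.7% of members and 10.9% of other WT peaks. The interval itself covered the TSS in 355 members, or 52.3%, against 59.0%.

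Read the other way, the share found in WT only was flat on the upstream side and higher past the TSS. It was 9.87% for centres over 2.5 kb upstream, 11.1% from 1 to 2.5 kb, and 9.83% from 0.5 to 1 kb. Past the TSS it was 15.4% over the first 300 bp, 15.8% up to 1 kb, 19.6% from 1 to 2.5 kb (16.2 to 23.6) and 17.1% beyond. For protein-coding genes alone the shares were 9.30% upstream and 19.2% within the gene model.

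Strength moved with position, since the median fold enrichment of all WT peaks was 10.9 upstream and 9.97 within gene models. The position shares were therefore recomputed in bins of strength, an alternative added after the data were seen. Between a fold enrichment of 6 and 8, where upstream and within-gene peaks had the same median fold enrichment of 7.11, 23.9% of upstream peaks (20.6 to 27.5) and 37.2% of within-gene peaks (31.5 to 43.4) were found in WT only. Under 6 the shares were 47.0% and 54.7%, and between 8 and 10 they were 13.3% and 17.8%, with overlapping intervals in both bins. In the bin from 6 to 8 the intervals of the upstream and within-gene shares were apart, and in the other 4 bins they overlapped.

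**Figure D2:**
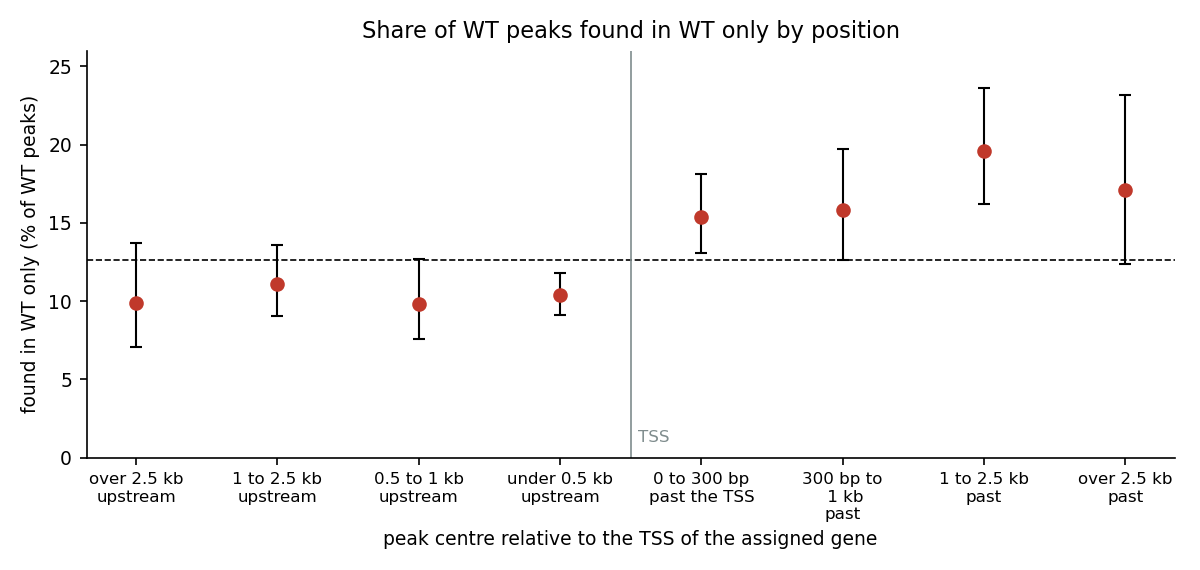
Percent of WT peaks found in WT only (points) with Wilson 95% intervals (bars), by the position of the peak centre relative to the TSS of the assigned gene. The dashed line is the share over all WT peaks, 12.6%. The 4 upstream bins lie between 9.83% and 11.1%, and the 4 bins past the TSS lie between 15.4% and 19.6%.

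Protein-coding genes received 422 of the 679 members, or 62.2% (58.4 to 65.7), against 66.8% of other WT peaks. Under a fold enrichment of 10 the shares were closer, at 62.0% (58.1 to 65.8) and 63.4%. Unclassified non-coding RNA genes received 159 members, piRNA genes 21, snoRNA genes 18, tRNA genes 16, pseudogenes 15, snRNA genes 7 and miRNA genes 1. The share of WT peaks found in WT only was 13.1% at unclassified non-coding RNA genes, 10.8% at piRNA genes and 3.57% at miRNA genes. The Wilson 95% interval of each of these shares held the 12.6% of all WT peaks. The biotype was found by name for 668 of the 679 members. In a crowded genome a short RNA gene can be the nearest TSS to a peak that belongs to a neighbour, so these are assignments by distance and nothing more.

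Some non-coding classes had a larger share of their WT peaks in WT only. The share was 43.8% for snRNA genes (7 of 16 peaks, 23.1 to 66.8), 20.0% for tRNA genes (16 of 80, 12.7 to 30.0) and 18.9% for snoRNA genes (18 of 95, 12.3 to 28.0), and 15 of the 60 peaks at pseudogenes were WT-only (15.8 to 37.2%). The lower bounds for snRNA genes, pseudogenes and tRNA genes stood above 12.6%, that of the tRNA genes only just. These biotypes were singled out after their values were seen. The 7 snRNA members lay at T11F9.15 (fold enrichment 11.8), sls-2.16 (9.23), F42C5.12 (7.54), sls-2.7 (7.42), F08H9.11 (7.42), H27M09.6 (6.79) and sls-2.14 (4.84). The sls-2 genes code for the SL2 spliced leader and occur in near-identical copies. Only uniquely aligned reads were used by the authors, so reads that fit several copies alike were dropped and signal inside the copies may be missing. Of the 16 tRNA members 9 lay on chromosome X, as did 45 of all 80 WT peaks at tRNA genes.

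Cuticle collagens, the structural proteins of the worm's outer coat, had the highest share among the gene classes with 10 or more WT peaks. Of 23 WT peaks assigned to collagen genes, 10 were WT-only, or 43.5% (25.6 to 63.2), each at a different gene. They were col-94 (9.34), col-55 (8.16), col-160 (7.37), col-17 (7.00), col-74 (6.71), sqt-3 (6.36), a collagen gene required for normal body shape, col-80 (5.33), col-76 (5.12), col-90 (4.62) and col-95 (4.60), in fold enrichment. The col-94 peak, at chrIII:10987459-10988355, had its centre 64 bp upstream, contained 182 tags and lay 827 bp from a daf-2(-) peak. The sqt-3 peak, at chrV:12353667-12354917, held 179 tags and lay 18811 bp from one. For 8 of the 10 the gene had no daf-2(-) peak, near the 76.4% (519 of 679) of all WT-only peaks. Collagen peaks were weak as a class, with a median fold enrichment of 7.85 over all their WT peaks. Among those under 10, 58.8% (36.0 to 78.4) were WT-only, against the 25.2% of all WT peaks below that value.

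Lysozymes, C-type lectins, galectins and saposin-like genes, several of which serve in defence against bacteria in the gut, came next. Of their 33 WT peaks 12 were WT-only, or 36.4% (22.2 to 53.4), and under a fold enrichment of 10 they were 11 of 22 (Wilson 95% interval 30.7 to 69.3%). The 12 peaks lay at 10 genes, some of them neighbours, and the intervals count each peak singly. The lysozyme gene lys-2 had a peak centred 2 bp upstream of its TSS with 166 tags and a fold enrichment of 11.2, and a further peak inside the gene with 149 tags and 5.91. The saposin-like genes spp-2 (9.75) and spp-4 (6.27), the invertebrate-type lysozyme genes ilys-4 (9.59) and ilys-5 (8.03 and 7.87), and the galectin genes lec-9 (9.41) and lec-10 (4.07) followed, with the C-type lectin genes clec-5 (8.25), clec-6 (8.16) and clec-50 (5.37). For 11 of the 12 peaks the gene had no daf-2(-) peak, the exception being lec-9, beside 76.4% of all WT-only peaks.

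Neuropeptide genes had 5 WT peaks, of which 4 were WT-only (80.0%, 37.6 to 96.4), too few to place the share closely. They lay at nlp-40 (9.08), which codes for a peptide of the intestine that times defecation, nlp-33 (7.34), nlp-24 (7.04) and nlp-31 (6.40). The nlp-31 and nlp-33 products are antimicrobial-type peptides of the epidermis. The nlp-24 peak, at chrV:11614477-11617136, was broad and held 448 tags. Of these genes nlp-40 alone had a daf-2(-) peak, beside 23.6% of all WT-only peaks. Among ion channels and transmitter receptors 6 of 23 peaks were WT-only (26.1%, 12.5 to 46.5), at the GABA-B receptor gene gbb-1 (9.21), the potassium channel genes twk-24 (7.29) and kqt-2 (5.64), the gap junction genes inx-13 (6.04) and inx-15 (5.99), and the voltage-gated calcium channel gene unc-2 (5.85). Chemoreceptor genes had 4 of 19 (21.1%, 8.51 to 43.3), at srh-191, whose biotype is pseudogene, and at srx-125, sre-43 and sre-24. The intervals of this class and of the channel class held 12.6% within them.

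Fat metabolism and yolk genes had 9 of 49 peaks in WT only, or 18.4% (9.98 to 31.4), a share whose interval held 12.6%. The acyl-CoA synthetase gene acs-1, which serves branched-chain fatty acids, had WT-only peaks with fold enrichments of 9.77 and 7.42 and no daf-2(-) peak. The others lay at the fatty acid elongase gene elo-3 (8.82), the desaturase genes fat-5 (8.14) and fat-6 (7.47), the lipase genes fil-1 (7.10) and lipl-5 (5.88), the acyl-CoA synthetase gene acs-20 (7.00) and the yolk protein gene vit-2 (5.96). The fat-6 peak, at chrIV:11913483-11915349, held 276 tags inside the gene and stood 390 bp from a daf-2(-) peak. Detoxification genes of the cytochrome P450, UGT and GST families had 6 of 45 (13.3%), at cyp-13B1 (8.89), ugt-28 (8.06), ugt-44 (7.81), cyp-13A3 (7.69), cyp-35C1 (7.16) and ugt-25 (5.49). Sugar and central carbon metabolism had 3 of 32 (9.38%), all inside the gene model. They lay at the lactate dehydrogenase gene ldh-1 (5.44), the trehalose synthesis gene tps-2 (4.60) and pck-2 (4.49), a gene of gluconeogenesis. Each of these genes also had at least 1 daf-2(-) peak, as had the genes of 23.6% of all WT-only peaks.

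**Figure D3:**
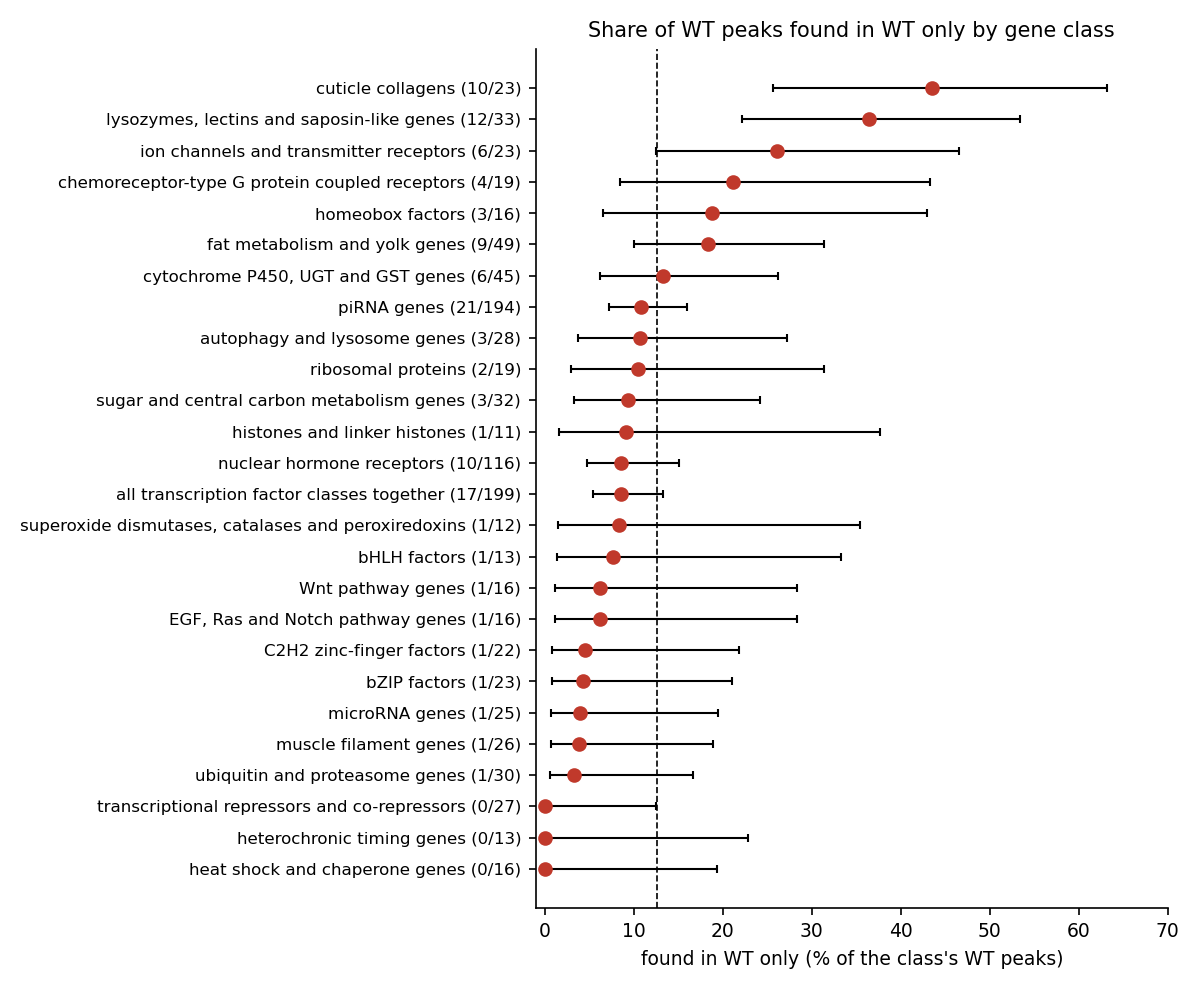
Percent of the WT peaks of each gene class found in WT only (points) with Wilson 95% intervals (bars), for the classes with 10 or more WT peaks. Members and all WT peaks of the class are given in parentheses, and the dashed line is 12.6%. Cuticle collagens (43.5%) and the lysozyme, lectin and saposin-like class (36.4%) are the only classes plotted whose whole interval lies above the line. Peaks at the same gene or at neighbouring genes are counted singly.

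Genes for transcription factors had a share of WT-only peaks near that of all WT peaks. Over 8 factor classes 17 of 199 peaks were WT-only, or 8.54% (5.40 to 13.3), an interval that held 12.6%, and 20.3% (12.9 to 30.4) under a fold enrichment of 10 against 25.2% of all WT peaks. Nuclear hormone receptors had 10 of 116 (8.62%, 4.75 to 15.1). For 7 of these 10 peaks the gene also had a daf-2(-) peak, beside 23.6% of all WT-only peaks. The moulting regulator nhr-23 had WT-only peaks with fold enrichments of 8.32 and 4.43, centred 1014 bp upstream of the TSS of one transcript and 80 bp past that of another, beside a shared peak of 14.7 in WT and 9.97 in daf-2(-). The nhr-61 peak (10.7) lay 12442 bp from the nearest daf-2(-) peak, while other sites of that gene had 5 daf-2(-) peaks. The nhr-1 peak (7.54) stood beside 7 shared WT peaks that reached a fold enrichment of 29.7, and 281 bp from a daf-2(-) peak. For 3 of the 10 receptor peaks, at nhr-20 (6.57), nhr-107 (6.01) and nhr-45 (5.85), no daf-2(-) peak was assigned to the gene.

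Other factor genes with a WT-only peak were mec-3 (7.93), the LIM homeobox gene of touch neuron identity, ceh-60 (7.77 and 6.01), a homeobox gene of the PBX family, klf-3 (8.66), a Krüppel-like factor gene, tbx-2 (7.81), a T-box gene of pharyngeal muscle, ref-1 (6.91) and zip-10 (5.94). The C2H2 zinc-finger gene pqm-1 was outside the classes and was looked at after its values were seen. PQM-1 is itself known as a regulator that answers to insulin signalling opposite to DAF-16. Its peaks at chrII:11150560-11151511 (158 tags, fold enrichment 7.77, within the gene) and chrII:11152802-11153650 (121 tags, 9.11, centred 626 bp upstream) were both WT-only, and the gene had no daf-2(-) peak.

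Several classes had no WT-only peak. None of the 9 WT peaks at genes from the insulin receptor to DAF-16 was WT-only, a count of 0 that allows a share of up to 29.9%, and none of the 27 at transcriptional repressors and co-repressors (up to 12.5%). The same held for the 16 peaks at heat shock and chaperone genes (up to 19.4%) and the 13 at heterochronic timing genes (up to 22.8%). Repressor peaks were strong, with a median fold enrichment of 16.3, and insulin pathway peaks had a median of 15.7. At 12 or more, 0.555% of all WT peaks were WT-only. Under 10, where 25.2% were, lay 6 of the repressor peaks and 2 of the insulin pathway peaks. The medians were 12.2 for heat shock and chaperone genes and 10.2 for heterochronic timing genes, beside 10.5 for all WT peaks. A single member was found at the insulin-like peptide gene ins-33 (5.37), the peroxisomal catalase gene ctl-2 (5.37), the EGF receptor gene let-23 (8.18), the beta-catenin gene sys-1 (6.91), the muscle attachment gene unc-52 (5.64), the histone gene his-38 (10.1) and the microRNA gene mir-82 (4.86).

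The 679 members were assigned to 654 genes, of which 502 (76.8%) had no daf-2(-) peak assigned and 152 had at least 1. By peaks, 160 of the 679 (23.6%) had a gene with a daf-2(-) peak elsewhere, against 94.2% of other WT peaks. Under the summit rule the share was 55.3% against 94.9%. These shares are tied to the rule, since other WT peaks are those matched to a daf-2(-) peak and WT-only peaks are those without a match. A second, shared WT peak occurred at 125 of the 654 genes. The paired sites at such genes included lfe-2, an inositol trisphosphate kinase gene, with WT-only peaks of 8.44 and 6.27 beside 4 shared WT peaks.

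A gene with 2 or more WT-only peaks was uncommon. There were 23 genes with 2 and 1 gene, hmit-1.3, with 3, and 16 of these 24 had no daf-2(-) peak. hmit-1.3 codes for a proton-coupled myo-inositol transporter family protein. Its peaks at chrIII:3515152-3515864 (103 tags, fold enrichment 7.16), chrIII:3515917-3516979 (130 tags, 5.37) and chrIII:3519512-3519957 (71 tags, 8.44) were assigned to different transcripts of the gene, the first and second inside a shorter model at 1254 and 314 bp past its TSS and the last 127 bp upstream of the TSS of a longer one. The nearest daf-2(-) peak was 4719 bp away or more. Other genes with a pair and no daf-2(-) peak were acs-1, lys-2, ilys-5, ceh-60, pqm-1, the sugar transporter family gene swt-3 (5.09 and 4.58) and the phosphodiesterase gene pde-3 (9.08 and 7.80), whose peaks were 50847 and 62681 bp from the nearest daf-2(-) peak.

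Neighbouring WT-only peaks with neither a shared nor a daf-2(-) peak between them were looked for after the data were seen. There were 73 such runs of 2 or more peaks, holding 163 members (24.0%), with no limit on the distance between neighbours. How many would arise from the number of peaks alone was not tested. Of these runs 3 reached 4 peaks. The first held the peaks of the neighbouring genes ceh-60 and ilys-5, chrX:6530376-6537261, with fold enrichments from 6.01 to 8.03 over 6886 bp. The next held both pairs of T27D12.1 and T27D12.10, chrII:11836456-11844084, with values from 6.87 to 9.14 over 7629 bp. The last was the hmit-1.3 triplet with C54C6.8, over 17489 bp. A run of 3 on chromosome X joined his-38, spp-2 and spp-4 within 9672 bp, and the peaks at the neighbours clec-5 and clec-6 lay 3604 bp apart. Another run of 3, on chromosome IV at M57.t1, nstp-6 and ZC416.6, spanned 88227 bp. Peaks that lie close together in a run share their surroundings, and the class shares above count them singly.

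The gap from a WT-only peak to the nearest daf-2(-) peak had a median of 3151 bp (2746 to 3841, quartiles 952 and 8373) and ran from 5 to 170632 bp. It was 100 bp or less for 9 members, 500 bp or less for 90 (13.3%), 5000 bp or less for 413 (60.8%) and 50000 bp or less for 664. The median is a description of the rule's own measure.

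At the near edge, the ZK829.13 peak (fold enrichment 9.97, 206 tags) stood 5 bp from a daf-2(-) peak of 8.23 assigned to the same gene. The next closest were T25C12.10 (53 bp), ZC308.5 (59 bp), the cadherin gene hmr-1 (71 bp) and the piRNA gene 21ur-9336 (84 bp). Just on the other side of the rule stood R04E5.2 and cnp-3 with overlaps of 11 bp, gob-1 with 16 bp, pes-9 with 38 bp and lin-24 with 53 bp, at WT fold enrichments from 6.65 to 11.0. At the far edge, F28B1.10 (fold enrichment 8.79, 103 tags), T05E12.6 (7.70, 226 tags) and F49H6.3 (4.98, 117 tags) formed a run on the right arm of chromosome V, 130796 to 170632 bp from a daf-2(-) peak. ZC204.13 on chromosome II (126400 bp) and Y32B12A.1 on chromosome V (103250 bp) were the others.

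**Figure D4:**
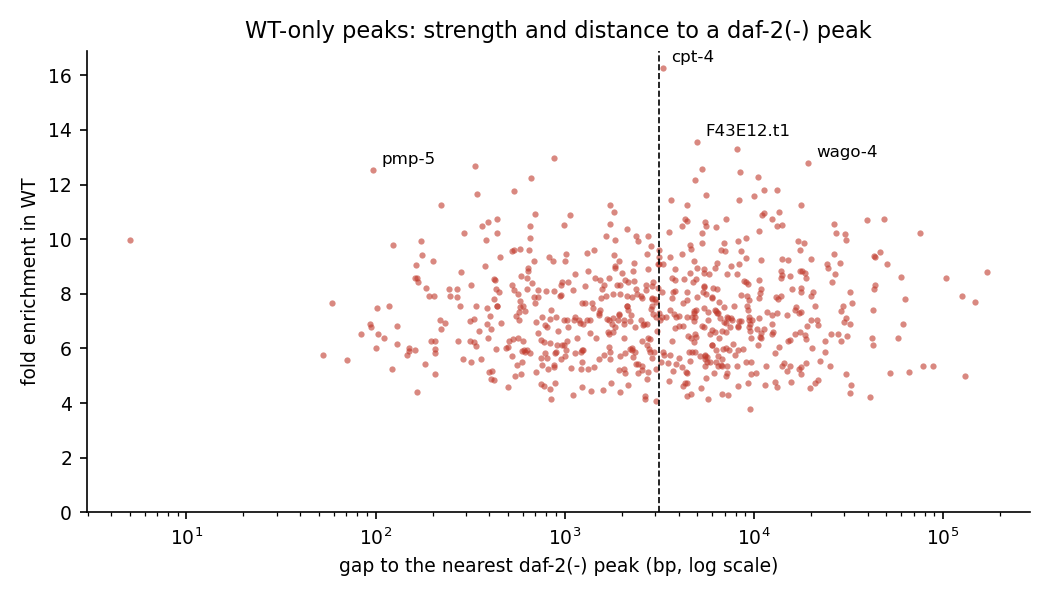
Each point is 1 of the 679 WT-only peaks, with the gap to the nearest daf-2(-) peak in bp on a logarithmic x axis and fold enrichment in WT on the y axis. The dashed line is the median gap, 3151 bp. Peaks over a fold enrichment of 12 occur on both sides of it, pmp-5 at 97 bp and wago-4 at 19232 bp among them.

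The members were spread over all 6 chromosomes, with the same lean towards chromosome X as the rest of the list. Chromosome X held 182 of them, or 26.8%, against 26.4% of other WT peaks. This came to 10.3 WT-only peaks per Mb (exact Poisson 95% interval 8.83 to 11.9) against 6.02 (5.50 to 6.57) on the autosomes, and to 70.3 against 42.0 for other WT peaks. Among autosomes WT-only peaks ranged from 5.24 per Mb on chromosome I to 7.00 on chromosome II. The share of WT peaks found in WT only was 10.4% on chromosome I (8.40 to 12.7), 12.7% on X and 14.8% on V (12.7 to 17.3).

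**Figure D5:**
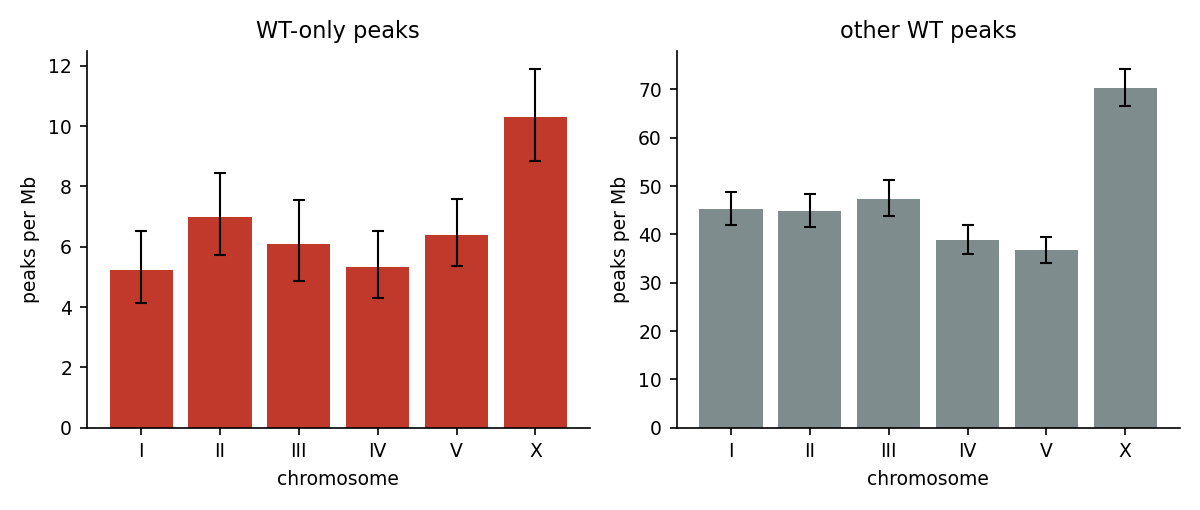
Peaks per Mb on each chromosome for WT-only peaks (left, red) and other WT peaks (right, grey), with exact Poisson 95% intervals as bars. The y axes differ in scale. Chromosome X has the highest bar in both panels, 10.3 and 70.3 peaks per Mb.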

How the data were processed

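DAF-16 ChIP-seq of mixed-stage worms was analysed from the peak lists of WT and daf-2(-), 1 ChIP library each. Per the study's methods the authors trimmed single-end reads (Cutadapt), aligned them uniquely to WS230 (Bowtie 0.12.7) and called peaks against input with MACS 1.4.2. Peaks also seen in daf-16(-) had been removed from the WT list, and peaks also seen in the double mutant from the daf-2(-) list. The deposited lists hold, for each peak, the count of tags, the summit height (a pileup signal), fold enrichment (a ratio of the summit to background), and the false discovery rate as a percent. A MACS score in the daf-2(-) list, deposited by the authors, was not used. Library totals were not used here. Tags inside peaks are totalled for WT only, so the depth of the daf-2(-) library is not given. Distances are from the TSS of the transcript each peak was assigned to, which can differ between peaks of 1 gene. In a deposited table of density in 25 bp bins, 1 column names no sample and was not used. Its bin names gave the chromosome extents.

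Overlap of at least 1 bp was tested on chromosome, start and end. Background was height divided by fold enrichment. In all WT peaks the deposited distance was that of the centre, to within 1 bp. The window of 0.5 kb includes a centre on the TSS. Biotypes came by name from a RefSeq table of assembly WBcel235, whose coordinates were not used. Exon, intron and UTR annotation and genome sequence were not used here. Shares have Wilson, medians order-statistic and counts exact Poisson intervals at 95%. The overlap step was tested on simulated data. The tools were scipy 1.17.1, pandas 2.3.3, numpy 2.4.6 and matplotlib 3.10.9 under Python 3.11.15. The 31 gene classes, the members and the rules were chosen with earlier results of these data known. Named genes were the 15 WT-only peaks of highest fold enrichment, the 10 highest within 0.5 kb upstream of named protein-coding genes, genes with 3 WT-only peaks, the 5 peaks at each edge of the rule, and class members. Genes outside this rule are named as chosen after their values were seen, which holds for every gene with a pair of WT-only peaks, the non-coding RNA genes listed by biotype, and class members past the first 4.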

Additional observations from a re-analysis of the deposited data

How the results depend on the processing

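The lists rest on 1 library for each strain and antibody, so counting intervals are the only error, and whether weak WT-only sites hold daf-2(-) tags below the calling limit was not tested. No paired analysis was possible because there were no replicates to pair. Of 48 alternative values of the main measures, 37 moved by less than their interval and 11 moved by more. A limit of 1% on the false discovery rate in both lists could not change the members. Their highest false discovery rate was 0.510%, and that of the daf-2(-) list was 0.150%. The values under this limit are counted among the 37 and say nothing about how stable the members are. Counting peaks as shared when a daf-2(-) summit lay within 100 bp gave 24.2% of WT peaks in WT only, and for those peaks 58.5% centred upstream, 27.9% within the gene model (added after the data were seen), a median length of 971 bp and 55.3% with a daf-2(-) peak at the gene. The values for other WT peaks were then 67.4% upstream, 20.9% within the gene model, 957 bp, so that the order of the lengths turned, and 94.9%. The shares with a daf-2(-) peak at the gene are tied to the rule. Counting gaps under 500 bp as shared gave 10.9% in WT only and 17.8% with a daf-2(-) peak at the gene. The share in WT only was 2.14% at a fold enrichment of 10 or more and 25.2% under 10. Within 0.5 kb upstream lay 30.5% of WT-only peaks, against 37.3% of other WT peaks. In wider windows the shares were 38.0% against 47.3% within 1 kb, and 68.3% against 75.8% from 2.5 kb upstream to 300 bp downstream. Among 25 values for single gene classes, an alternative added after the data were seen, 20 stayed and 5 moved. Fat and yolk genes moved to 34.6% under a fold enrichment of 10. Nuclear hormone receptors moved to 22.4% by summit and 19.6% under 10, and piRNA genes to 18.0% and 22.4%. The share over all WT peaks rose under the same settings, from 12.6% to 24.2% by summit and 25.2% under 10. Nuclear hormone receptors and piRNA genes (10.8% in the main setting) lay below it before and after these moves. Fat and yolk genes lay above it before and after. The planned FOXO motif search and its alternatives were not run, because a genome of the lists' build was not used here.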
